A study of Mus musculus with 12 samples.

Results

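The interferon-stimulated genes described here are 34 of the 20632 genes in the count tables. They were taken by symbol from a list of type I and type II interferon targets, with earlier results of these data known. They fall into 15 antiviral effectors around the Ifit and Oas families (Isg15, Usp18, Ifit1, Ifit2, Ifit3, Oas1a, Oasl2, Mx1, Rsad2, Ifi44, Bst2, Xaf1, Rtp4, Ifi27l2a and Samhd1), 7 guanylate-binding proteins and immunity-related GTPases (Gbp2, Gbp3, Gbp7, Irgm1, Irgm2, Igtp and Iigp1), 5 sensors of foreign nucleic acid or their partners (Ddx58, Ifih1, Zbp1, Eif2ak2 and Trim25), 4 transcription factors (Stat2, Irf9, Irf7 and Irf1) and 3 genes of a poly-ADP-ribose polymerase group (Parp9, Parp14 and Dtx3l). In the gonadal fat of these pregnant mice all 34 had at least 1 count in every library. No member differed between the genotypes or with treatment beyond the edgeR threshold (adjusted p of 0.05). Of them, Ifit3, Igtp, Trim25, Irf7, Parp9 and Rsad2 had an unadjusted p under 0.05 in some comparison. Xaf1 and Ifi27l2a had the largest ratios of highest to lowest CPM among the tested members.

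Type I interferons bind a receptor of Ifnar1 and Ifnar2, and a complex that holds Stat2 and Irf9 then turns on genes through the interferon-stimulated response element. Type II interferon binds Ifngr1 and Ifngr2 and turns on genes, among them Irf1, through the gamma-activated site. The Ifit and Oas families act on viral RNA, whereas the Gbp and Irg families are GTPases that attack vacuoles of intracellular parasites and bacteria, and in fat such genes can be transcribed in adipocytes as well as in resident immune and endothelial cells.

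The data are 3' RNA sequencing counts of white fat from around the uterus (gonadal white adipose tissue) of 12 pregnant mice at E17.5, 4 in each of 3 groups. WT vehicle mice carried the Tnfrsf11a (Rank) genotype without Foxn1 Cre and were given vehicle. KO vehicle and KO Treg mice carried it with Foxn1 Cre, a driver that acts in thymic epithelium, and were given vehicle or the treatment labelled Treg. Age and strain are not given in the labels used here, and the mice are numbered in a lower and a higher range, with all 4 KO vehicle mice in the lower range and 2 mice of each range in the other groups.

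Libraries held 5551967 to 12972655 counts, and levels are given as CPM (counts scaled to a common total, after TMM). Tnfrsf11a ran from 4.66 to 10.6 CPM and Foxn1 had 0 counts in all 12 libraries; in whole fat these check nothing about a deletion in the thymus. All 10 adipocyte markers were measured in every group, led by Fabp4 at 27300 to 32300 CPM. KO vehicle 1 and KO Treg 2 held placental transcripts, with summed CPM of 9 placental markers of 105 and 270 against 12.7 to 31.9 in the other 10 libraries. In those 10, Psg23 made up most of the sum. WT vehicle 2 and WT vehicle 4 also held traces of other markers, with 7 and 4 counts of Prl3b1 and 3 and 11 of Ceacam11. The fold changes of single members and the levels of member groups are also given without KO vehicle 1 and KO Treg 2 where stated. T and NK cell markers were sparse (5 of 12 passed the filter on low counts), as were those of plasmacytoid dendritic cells (1 of 6). In bulk tissue, fewer cells of a type and less RNA per cell cannot be told apart.

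Promoter sequences of 5 members are printed, because they hold the motifs of the pathway and their genes carry values below. RefSeq promoters (GRCm38.p6, 250 bases before to 50 after each start) were matched for 26 members. The letters GAAANNGAAA, the core of the interferon-stimulated response element, were searched on both strands. They stood in the promoters of 6 of 6 Gbp and Irg genes, 6 of 11 effectors, 3 of 4 sensors and 1 of 4 transcription factors, and in 3.99% of 27025 genes with a promoter. The letters TTCNNNGAA, the core of the gamma-activated site, stood in 3 of 6 Gbp and Irg genes, 4 of 11 effectors, 1 of 4 sensors and 1 of 4 transcription factors (Irf1), against 9.55% of all genes. Matches can overlap each other, and a match describes letters in this window, not a site in use. The stretches below are the 160 bases before each start, read 5′ to 3′ on the gene's strand, with matches of either motif in capitals.
Isg15, chr4:156200819-156200978, minus strand: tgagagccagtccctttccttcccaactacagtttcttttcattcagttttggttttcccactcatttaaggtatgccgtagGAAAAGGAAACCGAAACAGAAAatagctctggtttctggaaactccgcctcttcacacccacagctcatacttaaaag
Ifit3, chr19:34583369-34583528, plus strand: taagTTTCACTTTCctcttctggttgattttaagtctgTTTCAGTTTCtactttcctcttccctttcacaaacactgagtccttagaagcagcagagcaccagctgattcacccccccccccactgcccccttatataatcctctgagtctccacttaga
Rsad2, chr12:26456453-26456612, minus strand: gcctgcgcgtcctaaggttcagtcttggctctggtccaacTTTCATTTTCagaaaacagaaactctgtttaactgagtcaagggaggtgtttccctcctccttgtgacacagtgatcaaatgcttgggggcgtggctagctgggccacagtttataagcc
Gbp2, chr3:142620503-142620662, plus strand: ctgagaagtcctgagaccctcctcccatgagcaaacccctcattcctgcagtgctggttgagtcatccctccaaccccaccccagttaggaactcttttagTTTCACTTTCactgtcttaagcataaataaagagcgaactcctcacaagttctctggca
Igtp, chr11:58199396-58199555, plus strand: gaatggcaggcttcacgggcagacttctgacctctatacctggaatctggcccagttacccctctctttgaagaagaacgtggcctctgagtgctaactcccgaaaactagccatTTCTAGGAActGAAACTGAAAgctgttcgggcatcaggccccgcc

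Isg15 held 3 overlapping response element matches in a row, with first bases 78, 72 and 66 before the start. Ifit3 held 2, at 156 and 122 before the start, both on the opposite strand, and Rsad2 held 1 at 120. The Gbp and Irg matches lay at 59 in Gbp2, 53 in Gbp7, 45 and 39 in Gbp3, and 30 and 24 in Irgm1, and those of the effector Oas1a at 20 and 14. Igtp and its neighbour Irgm2 shared an arrangement, a gamma-activated core followed by a response element core, at 45 and 34 bases in Igtp and 75 and 64 in Irgm2. Irf7, Trim25, Xaf1, Oasl2, Ifi44, Irf9 and Dtx3l held neither motif in the window. The promoters of Usp18, Mx1, Rtp4, Ifi27l2a, Iigp1, Zbp1, Parp9 and Parp14 were not used here.

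The first comparison asks how the fat of KO vehicle mice differed from that of WT vehicle mice. By edgeR's quasi-likelihood test with Benjamini-Hochberg adjustment, 0.279% of 12175 genes passed. Of the 32 members that passed the filter (Oas1a and Mx1 did not), 0 passed the threshold by edgeR or DESeq2, and 3 had an unadjusted edgeR p under 0.05, a smaller share than the 12.4% of all genes tested that did. Groups did not overlap for 6.51% of all genes tested and for 0 members. Log2 fold changes lay above 0 for 14 of 32 members with a median of -0.009, beside 49.2% and -0.004 over all genes.

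Igtp, an immunity-related GTPase (chromosome 11, 58199556 to 58207591, mm10), stood at 12.8, 17.7, 13.3 and 10.1 CPM in the WT vehicle libraries and at 6.51, 9.51, 10.9 and 6.91 CPM in the KO vehicle libraries. In all, 3 KO vehicle libraries lay below every WT vehicle library, and KO vehicle 3 lay above WT vehicle 4. The means were 13.5 ± 3.13 and 8.46 ± 2.11 CPM (SD, n = 4 each), a log2 fold change of -0.67 ± 0.22 SE (edgeR adjusted p = 0.186, the lowest of any member here). Exons of Igtp overlap Irgm2 on the same strand, but not within the last 500 bases of either gene.

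Ifit3, a partner of Ifit1 in binding viral RNA (chromosome 19, 34583531 to 34588731), stood at 13.2, 16.1, 21 and 8.62 CPM in WT vehicle and at 7.99, 10.1, 9.57 and 8.12 CPM in KO vehicle. The KO vehicle libraries were close together and below all WT vehicle libraries but WT vehicle 4, which lay among them. The means were 14.7 ± 5.20 and 8.95 ± 1.06 CPM (SD, n = 4 each), a log2 fold change of -0.71 ± 0.24 SE (edgeR adjusted p = 0.211). Without WT vehicle 4 the edgeR adjusted p was 0.0613, the lowest over 20 alternatives, in which it ranged up to 0.484.

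Trim25, a ubiquitin ligase that acts on the RNA sensor RIG-I (chromosome 11, 88999376 to 89020293), had a fold change of the opposite sign. It stood at 34.9, 34.7, 47.3 and 52.3 CPM in WT vehicle and at 52.3, 53.7, 55.0 and 66.9 CPM in KO vehicle. WT vehicle 1 and 2, the animals of the lower number range, were the lowest, and the highest WT vehicle library met the lowest KO vehicle library. The means were 42.3 ± 8.89 and 57.0 ± 6.72 CPM (SD, n = 4 each), a log2 fold change of 0.43 ± 0.15 SE (edgeR adjusted p = 0.202). Within the lower number range the log2 fold changes were 0.70 for Trim25, -0.86 for Igtp and -0.72 for Ifit3 (edgeR adjusted p = 0.193, 0.278 and 0.269). Igtp and Ifit3 were lowest in KO vehicle 1, a library with placental transcripts. Without both such libraries the log2 fold changes were 0.47 for Trim25, -0.57 for Igtp and -0.66 for Ifit3 (edgeR adjusted p = 0.354, 0.409 and 0.409).

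The second comparison asks how the treatment labelled Treg went with the knockouts' fat. By edgeR, 0.00821% of the genes passed (1 gene), and 0 of 32 members did. By DESeq2 also 0 members passed, where only 4 of the 5 sensors had an adjusted p. At an unadjusted edgeR p under 0.05 there were 4 of 32 members, Irf7, Parp9, Trim25 and Ifit3, beside 8.77% of all genes. Their groups did not overlap, as for 5.04% of all genes. Above 0 were 14 of 32 members with a median of -0.032, beside 49.7% and -0.002 over all genes. Since both comparisons use the KO vehicle libraries, the values of Ifit3 and Trim25 in that group enter both.

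Irf7, the factor that amplifies type I interferon production (chromosome 7, 141262706 to 141266481), stood at 8.79, 10.1, 12.2 and 9.34 CPM in KO vehicle and at 14.1, 16.7, 16.6 and 15.2 CPM in KO Treg. All 4 KO Treg libraries lay above all KO vehicle libraries. The means were 10.1 ± 1.47 and 15.6 ± 1.24 CPM (SD, n = 4 each), a log2 fold change of 0.63 ± 0.19 SE (edgeR adjusted p = 0.339), and 0.54 without the libraries with placental transcripts (edgeR adjusted p = 0.515). WT vehicle overlapped both groups, at 12, 13.2, 15.1 and 7.86 CPM. The end of Irf7 overlaps Phrf1 on the opposite strand, and whether the counting used strand is not stated. Phrf1 itself was at 25.9 ± 3.73 CPM in KO vehicle and at 26.2 ± 2.19 CPM in KO Treg (SD, n = 4 each).

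Parp9, a macrodomain protein that pairs with the ubiquitin ligase Dtx3l (chromosome 16, 35938470 to 35972605), stood at 34.1, 24.9, 24.2 and 23.2 CPM in KO vehicle and at 22, 18.7, 16.8 and 18.3 CPM in KO Treg. The groups did not overlap, although the nearest libraries were 22 and 23.2, and KO vehicle 1, a library with placental transcripts, was the highest. The means were 26.6 ± 5.07 and 19.0 ± 2.21 CPM (SD, n = 4 each), a log2 fold change of -0.48 ± 0.16 SE (edgeR adjusted p = 0.375). Without both placental libraries it was -0.33 (edgeR adjusted p = 0.621). The WT vehicle libraries overlapped both groups, at 20.8, 19.8, 23.7 and 25.7 CPM. The exons of Parp9 and Dtx3l overlap on opposite strands at their starts.

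For Trim25 the KO Treg libraries stood at 43.5, 44.8, 41.0 and 43.6 CPM, all below those of KO vehicle and within the range of WT vehicle (mean 43.2 ± 1.57, SD, n = 4, log2 fold change against KO vehicle -0.40 ± 0.15 SE, edgeR adjusted p = 0.446). For Ifit3 they stood at 13.9, 10.8, 17.9 and 11.2 CPM, all above those of KO vehicle (mean 13.4 ± 3.25, SD, n = 4, 0.58 ± 0.24 SE, edgeR adjusted p = 0.513). Against WT vehicle, KO Treg gave log2 fold changes of 0.04 for Trim25 and -0.13 for Ifit3. Igtp, next in order of p, stood at 14.1, 10.4, 10.7 and 10.1 CPM in KO Treg, overlapping both other groups. Its mean there was 11.3 ± 1.87 CPM (SD, n = 4). The log2 fold changes of Igtp were 0.42 ± 0.22 SE against KO vehicle (edgeR adjusted p = 0.612) and -0.25 against WT vehicle. Without the libraries with placental transcripts, the log2 fold changes against KO vehicle were -0.45 for Trim25 and 0.62 for Ifit3 (edgeR adjusted p = 0.485 and 0.564). With the number range as a covariate the log2 fold changes against KO vehicle were 0.65 for Irf7, -0.50 for Parp9, -0.51 for Trim25 and 0.52 for Ifit3.

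The third comparison sets KO Treg against WT vehicle. By edgeR 0% of the genes passed and 0 of 32 members, and by DESeq2 1 gene and 0 members. Of the members, 1 had an unadjusted edgeR p under 0.05, as did 2.87% of all genes tested (349). Groups did not overlap for 1 of 32 members, beside 1.63% of all genes. Above 0 were 16 of 32 members with a median of -0.004, beside 49.0% and -0.004 over all genes.

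That member was Rsad2, which encodes the antiviral radical enzyme viperin (chromosome 12, 26442746 to 26456452). It stood at 119, 123, 135 and 137 CPM in WT vehicle, at 84.5, 143, 71.9 and 117 CPM in KO vehicle and at 63.4, 83.0, 117 and 89.8 CPM in KO Treg. WT vehicle was the tightest group and lay above every KO Treg library, whereas KO vehicle spanned nearly the whole range. The means were 128 ± 8.70, 104 ± 32.1 and 88.4 ± 22.2 CPM (SD, n = 4 each), and the log2 fold change of KO Treg against WT vehicle was -0.54 ± 0.21 SE (edgeR adjusted p = 1). Over 20 alternatives it ranged from -0.72 to -0.41, and was -0.51 without the libraries with placental transcripts (edgeR adjusted p = 1).

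**Figure D1:**
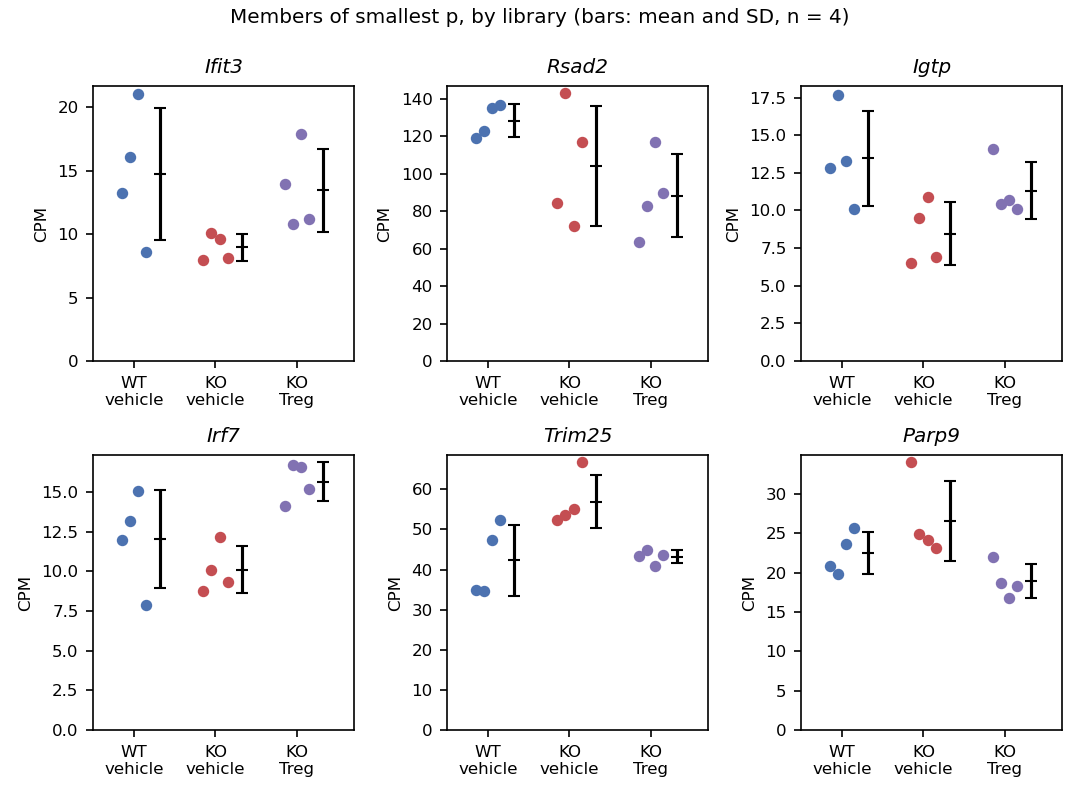
CPM (linear axis from 0) of Ifit3, Rsad2, Igtp, Irf7, Trim25 and Parp9 in every library of the 3 groups, with bars for the mean and SD (n = 4). Irf7 in KO Treg (14.1 to 16.7 CPM) lies above KO vehicle (8.79 to 12.2 CPM), and Rsad2 in WT vehicle (119 to 137 CPM) lies above KO Treg (63.4 to 117 CPM).

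How far the data limit a change can be read from the intervals. The 95% interval of the fold change lay within 2-fold in either direction for 25 of 32 members in KO vehicle against WT vehicle, 25 in KO Treg against KO vehicle and 28 in KO Treg against WT vehicle. For Irf9, the part of the complex with Stat2 that binds DNA, the log2 fold changes were 0.00, -0.05 and -0.05 with an SE of 0.13. Intervals that reached 2-fold in the first comparison were those of Ifit1, Ifit3, Xaf1, Ifi27l2a, Irgm1, Igtp and Zbp1. That of Ifi27l2a ran from -0.65 to 2.06 on the log2 scale.

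**Figure D2:**
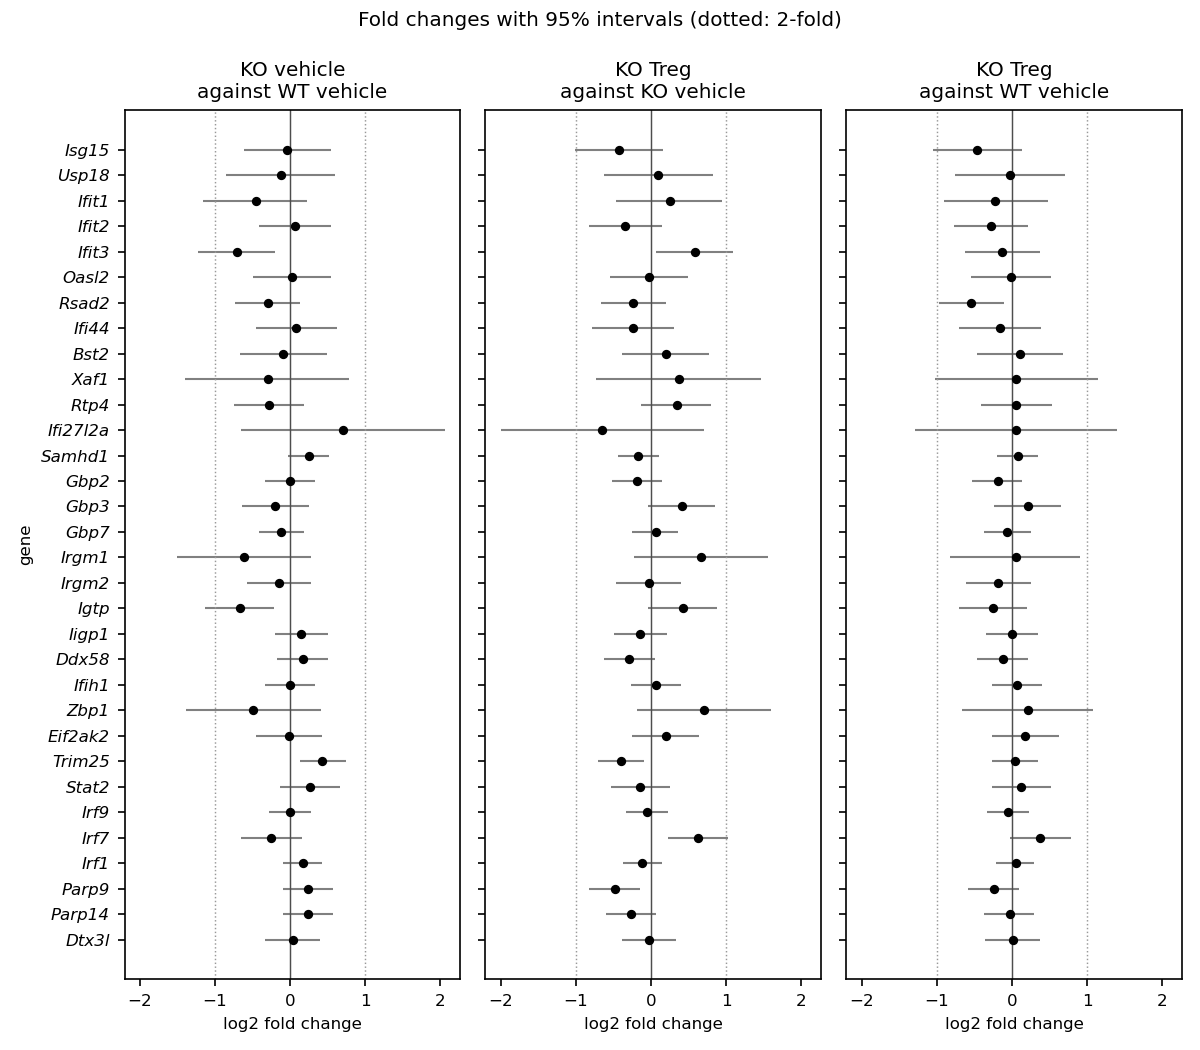
Log2 fold changes of the 32 members that passed the filter (points) with 95% intervals from edgeR (lines), in the 3 comparisons, with dotted lines at 2-fold. Most intervals lie within the dotted lines (25, 25 and 28 of 32), and those of Ifi27l2a and Xaf1 are the widest in each panel.

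Of the 32 tested members, the transcription factors Irf1 and Irf9 had the lowest coefficients of variation over the 12 libraries. Irf1, a factor that interferon gamma induces, stood at 126, 128, 102 and 137 CPM in WT vehicle, 125, 140, 135 and 154 CPM in KO vehicle and at 120, 134, 132 and 123 CPM in KO Treg. Irf9 lay between 27.6 and 38.3 CPM and Stat2 between 7.99 and 13.5 CPM over the 12 libraries, with overlapping groups. The coefficients were 9.67% for Irf1 and 10.3% for Irf9, against 24.2% for Irf7 and a median of 20.9% over the 32 members and 19.9% over all genes tested. Counting error, which falls with the number of counts, is part of these values. As multiples of counting error alone they were 3.18 for Irf1, 1.68 for Irf9 and 2.49 for Irf7. The median multiple was 2.28 over the members and 2.4 over all genes tested, so Irf1 was not unusually steady by that measure.

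Upstream of them, transcripts of the interferons themselves were nearly absent from the counts. Of 21 interferon genes, 20 had 0 counts in all 12 libraries, among them Ifnb1 and Ifng, and Ifne had 1 count in WT vehicle 3. A count of 0 allows 3 counts, or 0.241 to 0.539 CPM at these depths, counting error only. The receptors were measured: Ifngr1 at 264 CPM over the 12 libraries, Ifnar2 at 114, Il10rb at 36.4, Ifnar1 at 21.5 and Ifngr2 at 9.85, while Ifnlr1 did not pass the filter. Of the 5 tested, 0 passed in any comparison (lowest edgeR adjusted p = 0.75, 0 at an unadjusted p under 0.05, and 0 by DESeq2). Ifnar1 was at 22.2 ± 3.26, 20.9 ± 4.71 and 21.3 ± 3.63 CPM in WT vehicle, KO vehicle and KO Treg (SD, n = 4 each).

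Other genes of the pathway, from lists that do not include the members, gave 0 calls in all 3 comparisons by edgeR and by DESeq2. In KO vehicle against WT vehicle, log2 fold changes lay above 0 for 10 of 14 signalling genes, 9 of 13 nucleic acid sensing genes, 15 of 28 further Ifit, Oas and related effectors and 4 of 9 further Gbp and Irg genes, with 1, 2, 0 and 1 at an unadjusted p under 0.05 (12.4% of all genes). In KO Treg against KO vehicle, they lay above 0 for 1 of 14, 4 of 13, 10 of 28 and 2 of 9, with 1, 0, 1 and 0 at an unadjusted p under 0.05 (8.77% of all genes). In KO Treg against WT vehicle, they lay above 0 for 5 of 14, 8 of 13, 12 of 28 and 3 of 9, with 0, 0, 1 and 0 (2.87% of all genes). The further Gbp and Irg genes thus stood at 4 of 9 and 2 of 9 above 0 in the first 2 comparisons, where the 7 members of that family stood at 1 and 4. Groups did not overlap for 0, 3 (Tlr3, Ticam1 and Adar), 0 and 0 genes of the 4 lists in the first comparison (6.51% of all genes). The counts were 1, 0, 0 and 0 in the second (5.04%) and 0, 0, 1 and 0 in the third (1.63%).

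Of the tested members, Ifi27l2a had the highest coefficient of variation over the 12 libraries, 49.5%, while the ratio of the highest to the lowest CPM was 7.14 for it and 11 for Xaf1 (12.7 for the untested Mx1, with few counts). Ifi27l2a, a small hydrophobic interferon-induced protein, was the member with most counts, at 1390, 195, 668 and 631 CPM in WT vehicle, 1020, 1280, 1070 and 1350 CPM in KO vehicle and at 262, 1060, 1290 and 380 CPM in KO Treg. WT vehicle 2, KO Treg 1 and KO Treg 4 were the lowest. The 4 KO vehicle libraries lay from 1020 to 1350 CPM, WT vehicle held 1 library above that range and 3 below it, and KO Treg held 2 below it and 2 within it. The means were 721 ± 495, 1180 ± 161 and 749 ± 505 CPM (SD, n = 4 each), and KO vehicle against WT vehicle gave a log2 fold change of 0.71 ± 0.61 SE (edgeR adjusted p = 0.703).

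Xaf1, an interferon-induced partner of apoptosis inhibitors, stood at 15.8, 16.4, 20.8 and 1.90 CPM in WT vehicle, 9.13, 14.2, 13.6 and 7.41 CPM in KO vehicle and at 8.89, 14.8, 17.4 and 16.1 CPM in KO Treg. WT vehicle 4 was the single low library, with 15 counts against 73 to 197 in the other 11. That library was also the lowest for Oasl2, at 4.94 CPM, where the other libraries ran from 7.56 to 13.7 CPM, and for Irf7. Isg15, the ubiquitin-like modifier, stood at 3.94 CPM in WT vehicle 1 and 3.83 CPM in KO vehicle 3, and from 4.68 to 8.47 CPM in the other 10 libraries. Its ratio of highest to lowest CPM was 2.21, below those of Usp18 (3.65) and Irgm1 (3.32), which had fewer counts. Relative to counting error the order was reversed. The coefficient of variation was 2.08 times that of counting alone for Isg15, 1.81 for Irgm1 and 1.44 for Usp18.

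**Figure D3:**
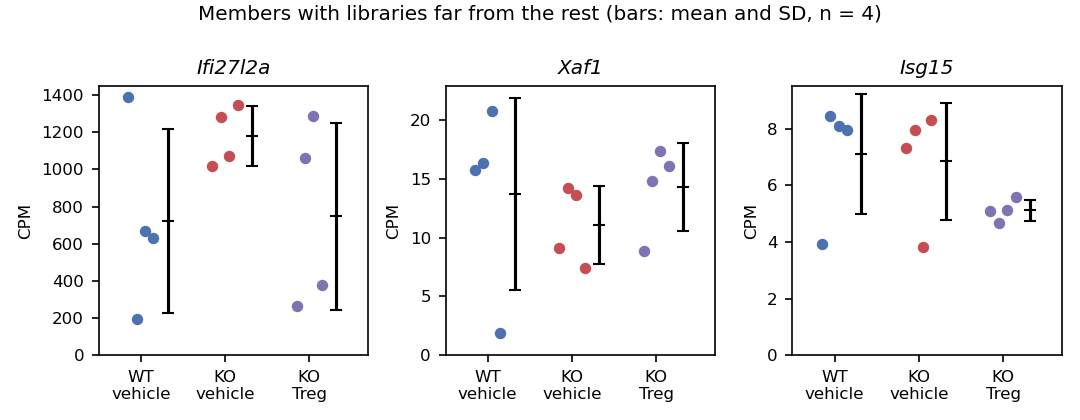
CPM (linear axis from 0) of Ifi27l2a, Xaf1 and Isg15 in every library of the 3 groups, with bars for the mean and SD (n = 4). Ifi27l2a is split within WT vehicle (195 to 1390 CPM) and KO Treg (262 to 1290 CPM), and single libraries are low for Xaf1 (1.90 CPM) and Isg15 (3.83 and 3.94 CPM). The ratio of highest to lowest CPM is 7.14 for Ifi27l2a, 11 for Xaf1 and 2.21 for Isg15.

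Among the other effectors, Samhd1, which breaks down deoxynucleotides, was at 83.0 ± 7.37, 98.4 ± 14.0 and 87.6 ± 8.03 CPM in the WT vehicle, KO vehicle and KO Treg groups (SD, n = 4 each). Its log2 fold change in KO vehicle against WT vehicle was 0.25 ± 0.13 SE (edgeR adjusted p = 0.462). Bst2, the virus tether tetherin, ran from 13.8 to 32.6 CPM, with both ends of that range in KO Treg. Rtp4, an interferon-induced chaperone of receptors, ran from 9.93 to 19.1 CPM. Ifit1, Ifit2, Usp18 and Ifi44 lay between 1.32 and 10.1 CPM in all libraries. Oas1a and Mx1 had 1 to 14 and 1 to 12 counts a library and were not tested. Of the last 300 bases of Oas1a transcripts, 21.1% of 50-base words also occur in Oas1g, so its few reads are uncertain.

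Gbp and Irg genes encode GTPases that interferon gamma induces. Gbp7 stood at 64.2, 96.7, 92.5 and 70.4 CPM in WT vehicle, 74.9, 83.0, 65.1 and 74.9 CPM in KO vehicle and at 67.6, 82.2, 83.5 and 77.2 CPM in KO Treg. Gbp2 lay between 15.8 and 25.2 CPM, and Iigp1 between 45.3 and 75.7 CPM. Gbp3 was at 9.64 ± 2.34, 8.47 ± 1.68 and 11.2 ± 1.73 CPM in WT vehicle, KO vehicle and KO Treg, and Irgm1, with 9 to 32 counts a library, at 2.35 ± 1.15, 1.5 ± 0.572 and 2.35 ± 0.840 CPM (SD, n = 4 each). Of the 7 genes, 4 (Gbp3, Gbp7, Irgm1 and Igtp) had their lowest mean in KO vehicle, 2 (Gbp2 and Irgm2) in KO Treg and 1 (Iigp1) in WT vehicle, and 0 passed in any comparison (lowest edgeR adjusted p = 0.186). Irgm2 stood at 18.2 CPM in WT vehicle 2 and from 8.68 to 13.2 CPM in the other 11 libraries.

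Of the sensors, Ddx58 (RIG-I) was at 13.9 ± 1.61, 15.5 ± 2.53 and 12.7 ± 0.996 CPM in WT vehicle, KO vehicle and KO Treg, and Ifih1 (MDA5) at 17.8 ± 1.14, 17.8 ± 2.25 and 18.7 ± 3.65 CPM (SD, n = 4 each). Eif2ak2, the kinase PKR, ran from 5.85 to 13.4 CPM, and Zbp1, a sensor of Z-form nucleic acid, had 5 to 13 counts a library. In the polymerase group, Parp14 was at 33.5 ± 2.61, 39.4 ± 8.89 and 32.7 ± 3.47 CPM and Dtx3l at 61.6 ± 18.1, 63.1 ± 7.82 and 61.8 ± 3.38 CPM (SD, n = 4 each). Dtx3l varied most in WT vehicle, from 44.0 to 83.7 CPM. Without KO vehicle 1, its highest library in that group, Dtx3l in KO vehicle was at 59.1 ± 0.377 CPM (SD, n = 3). That SD is smaller than counting error alone gives for Dtx3l (a coefficient of variation of 4.39%), so it does not measure how steady the gene was. Exons of Irf9, Rtp4, Gbp7 and Parp14 overlap another gene on the same strand and those of Irf1, Gbp2, Usp18 and Eif2ak2 overlap genes on the opposite strand, but not within their last 500 bases, where 3' reads fall.

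**Figure D4:**
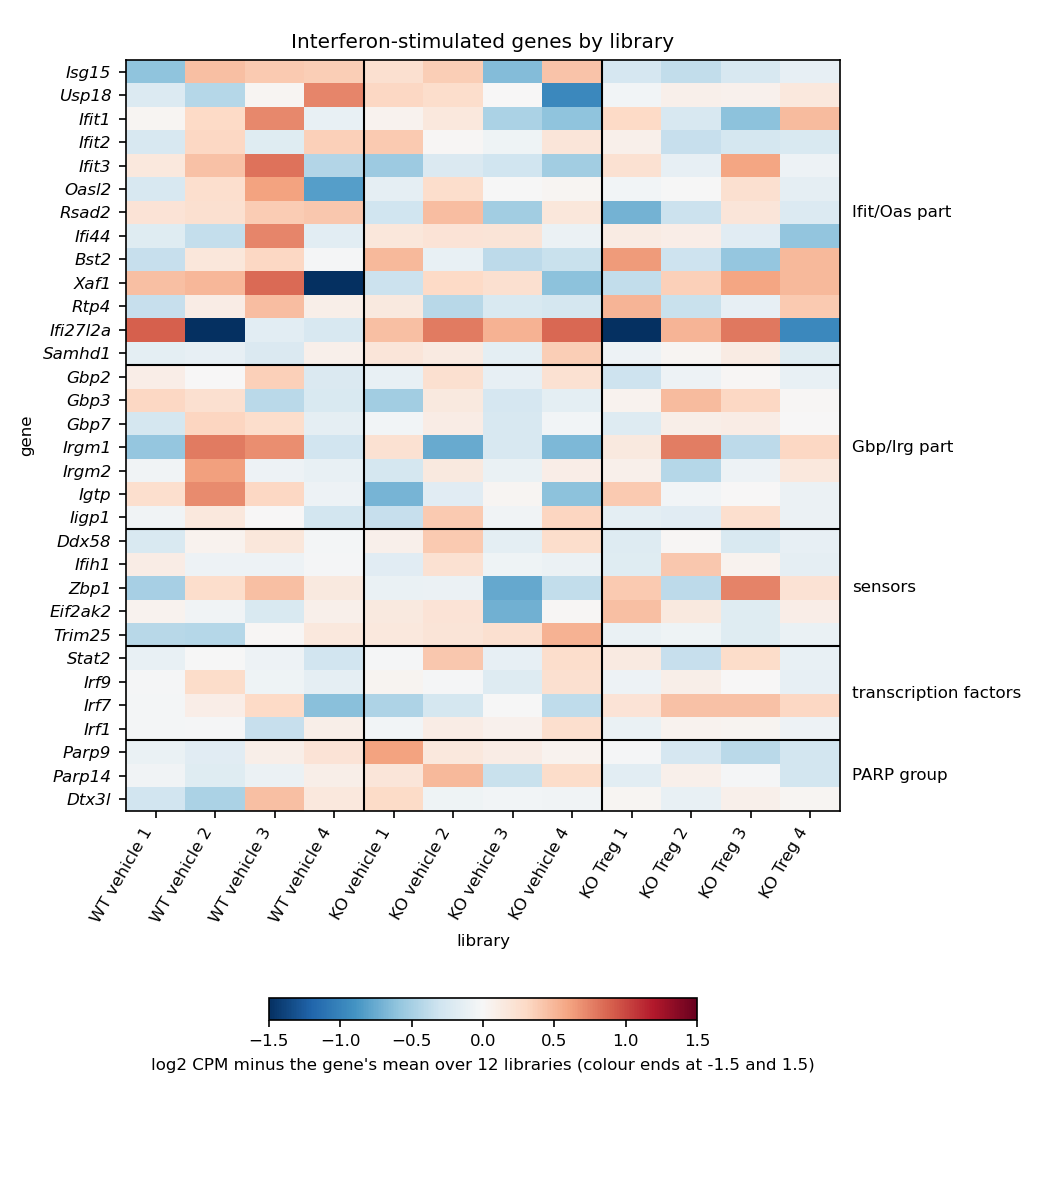
Log2 CPM (prior count of 2) of the 32 tested members in each library minus the gene's mean over the 12 libraries (red above, blue below), in rows by role and columns by group. Deep blue cells mark Xaf1 in WT vehicle 4 and Ifi27l2a in WT vehicle 2 and KO Treg 1, and no group is a single colour down its columns.

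The Ifit/Oas part (13 tested effectors) and the Gbp/Irg part (7 genes) were compared by the mean log2 CPM of their genes in each library. Of the 13, only Ifit1, Ifit2, Ifit3 and Oasl2 belong to the Ifit and Oas families, so the part's values describe the effector list. The Ifit/Oas mean was 3.96, 3.996, 4.36 and 3.83 in WT vehicle, 4.09, 4.17, 3.86 and 3.89 in KO vehicle and 3.91, 3.92, 4.04 and 3.96 in KO Treg. The Gbp/Irg mean was 3.94, 4.38, 4.14 and 3.79 in WT vehicle, 3.73, 3.995, 3.84 and 3.87 in KO vehicle and 3.98, 4.07, 4.01 and 4.01 in KO Treg. The groups overlapped in both parts. KO Treg was narrow, with a Gbp/Irg mean of 4.02 ± 0.04 (SD, n = 4), where WT vehicle was at 4.06 ± 0.26 and KO vehicle at 3.86 ± 0.11. Without the libraries with placental transcripts, the Gbp/Irg mean was 3.90 ± 0.08 in KO vehicle and 4.002 ± 0.017 in KO Treg (SD, n = 3 each). No test is given for these means, which are descriptions of chosen lists.

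Different libraries led the 2 parts. WT vehicle 3 was the highest of the 12 for the Ifit/Oas mean and for 5 of its 13 genes, and WT vehicle 2 for the Gbp/Irg mean and for 4 of its 7 genes. Both were also among the higher libraries of the other part, with WT vehicle 3 at rank 2 for Gbp/Irg and WT vehicle 2 at rank 5 for Ifit/Oas. In WT vehicle 2, 9 of the 13 effectors lay above their own mean (median deviation 0.246), while Ifi27l2a lay at -1.93 log2 units from its own. WT vehicle 4 was lowest for the Ifit/Oas mean and KO vehicle 1 for the Gbp/Irg mean. The low mean of WT vehicle 4 rested largely on Xaf1, at -2.46 log2 units from its own mean over the 12 libraries. There, 6 of the 13 genes lay above their own mean, and the median deviation was -0.015. For the Gbp/Irg mean WT vehicle 4 was also low, at rank 11 of the 12, with 0 of 7 genes above their own mean. The Gbp/Irg mean minus the Ifit/Oas mean ran from -0.35 in KO vehicle 1, a library with placental transcripts, to 0.39 in WT vehicle 2. In WT vehicle it was -0.02, 0.39, -0.22 and -0.04, and in KO vehicle -0.35, -0.17, -0.02 and -0.03. For KO Treg the values were 0.07, 0.14, -0.03 and 0.05. Without both libraries with placental transcripts, the mean difference was -0.07 ± 0.09 in KO vehicle and 0.03 ± 0.05 in KO Treg (SD, n = 3 each). The groups overlapped, and a value of 0 means only that the 2 lists had equal mean levels.

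By comparison, the median log2 fold change of KO vehicle against WT vehicle was -0.09 for the Ifit/Oas part (5 of 13 above 0) and -0.15 for the Gbp/Irg part (1 of 7 above 0). For KO Treg against KO vehicle the medians were -0.03 (6 of 13) and 0.06 (4 of 7), and for KO Treg against WT vehicle -0.03 (5 of 13) and -0.06 (3 of 7). The medians over all genes were -0.004, -0.002 and -0.004. Without WT vehicle 2 the Gbp/Irg median of the first comparison was -0.03, and without the libraries with placental transcripts the Gbp/Irg and Ifit/Oas medians were -0.10 and -0.22. With the number range as a covariate the Ifit/Oas median was 0.04, on the other side of 0.

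**Figure D5:**
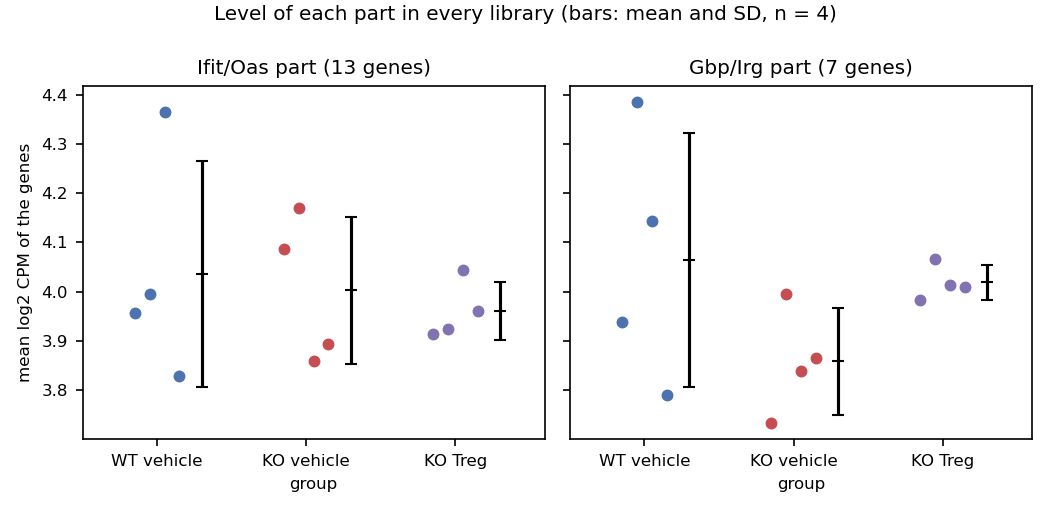
Mean log2 CPM over the 13 tested effectors of the Ifit/Oas part (left) and the 7 Gbp/Irg genes (right) in every library, by group. Bars give the mean and SD (n = 4), and the axis does not start at 0. KO vehicle is lowest on average for Gbp/Irg (3.86 against 4.06 and 4.02), with points that overlap those of WT vehicle.

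Markers of macrophages, which respond to interferon, were tested in the same way. All 10 had a log2 fold change above 0 in KO vehicle against WT vehicle and 9 of 10 below 0 in KO Treg against KO vehicle, with 0 called by edgeR or DESeq2 and 1 at an unadjusted p under 0.05 in each (12.4% and 8.77% of all genes); both comparisons use the KO vehicle libraries. Their summed level was 862 to 1010 CPM over the WT vehicle libraries, 938 to 1270 CPM over KO vehicle and 815 to 1200 CPM in KO Treg. T and NK markers, of which Cd3e, Cd3g, Cd4 and Cd8a did not pass the filter, summed to 11 to 22.7, 7.08 to 25.6 and 11.6 to 17.1 CPM in the WT vehicle, KO vehicle and KO Treg groups. The part of either cell type in the members' values was not tested.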

How the data were processed

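For each of the 12 libraries the authors deposited a table of raw counts for 20632 gene symbols. Of these, 4160 were 0 in every library. Per the labels' protocols, a QuantSeq kit, which reads the 3' ends of transcripts, was used. Per the submitters' processing notes, BWA 0.7.12, SAMtools 1.3.1, TopHat2 2.1.1, HTSeq 0.6.1 and the build mm10 were used; what each tool did, the gene annotation, and whether counting used strand are not stated. Each library was taken as 1 animal from its own number in the labels; if some are not, the p-values measure only the spread between libraries, and replicates were numbered by accession and are unpaired.

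The counts were filtered (filterByExpr), scaled (TMM) and tested across 12175 genes with edgeR 4.0.16 (robust quasi-likelihood fit, 3 groups in 1 fit, Benjamini-Hochberg adjustment, threshold 0.05) in R 4.3.3. Intervals of 95% and standard errors come from that fit, and log2 CPM used a prior count of 2. Alternatives were DESeq2 1.42.0, RLE or upper quartile scaling, no filter, fitting the 2 compared groups alone, the range of the animal numbers as a covariate or the lower range alone, and leaving out each library. Leaving out both libraries with placental transcripts was chosen after seeing the data. Members and lists were chosen with earlier results of these data known. Values are named for any member past the threshold, the transcription factors, the Gbp and Irg genes, the 3 highest members of each other role and the 5 of smallest p in each comparison. Xaf1, Ifit1, Ifit2, Oasl2, Bst2, Rtp4, Usp18, Ifi44, Zbp1, Eif2ak2, Oas1a and Mx1 were named after their values were seen. Gene positions come from GENCODE M21 (GRCm38).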

Additional observations from a re-analysis of the deposited data

Results flagged for a closer look

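Of 102 groups of 4 libraries, 6 held a library set apart from the other 3, where chance flags about 1 in 20 (5.1). Each was 1 of the 32 tested members, or the mean of the Ifit/Oas or Gbp/Irg part, in 1 group. A library was flagged where its gap to the nearest other library exceeded 0.829 of the range of the 4. A flag can thus come from 3 close values and does not by itself mean a large distance. Values are log2 CPM. Isg15 stood at 2.02 in KO vehicle 3 (others 2.91 to 3.10) and at 2.06 in WT vehicle 1 (3.04 to 3.12). Ifi44 stood at 2.54 in KO vehicle 4 (2.80 to 2.84), and Xaf1 at 1.09 in WT vehicle 4 (4.01 to 4.40). Irgm2 stood at 4.21 in WT vehicle 2 (3.48 to 3.53), and Dtx3l at 6.23 in KO vehicle 1 (5.88 to 5.90).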

How the results depend on the processing

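The count of 0 members past the threshold held in every comparison under all alternatives run, and Ifit3, Igtp, Trim25, Irf7, Parp9 and Rsad2 kept their direction in 20 of 20 alternatives for each comparison in which they had an unadjusted p under 0.05. Over all genes, the 34 calls of KO vehicle against WT vehicle became 259 with DESeq2, 0 with the number range as a covariate, 0 in the lower number range alone, 3 without both libraries with placental transcripts, and 1 to 125 with 1 library left out (125 without WT vehicle 4, 1 without KO vehicle 1; it moved by over 1.5 times without any library except KO Treg 2 and WT vehicle 1). The 1 call of KO Treg against KO vehicle became 68 with DESeq2 and 0 with RLE scaling, fits of 2 groups, the covariate, the lower range, without the placental libraries, and with any library left out (0 to 0). The 0 calls of KO Treg against WT vehicle became 1 with DESeq2. The Ifit/Oas median of KO vehicle against WT vehicle was 0.039 with the covariate, -0.22 without the placental libraries and -0.23 to -0.001 with 1 library left out; that of KO Treg against KO vehicle was -0.16 with no filter; that of KO Treg against WT vehicle ran from -0.22 (without WT vehicle 4) to 0.039. The Gbp/Irg median was -0.35 and -0.21 in the lower range against WT vehicle for KO vehicle and KO Treg, and ran, in that order, from -0.23 to -0.025 and from -0.18 to 0.038 with 1 library left out. Members above 0 in KO Treg against WT vehicle numbered 9 (without WT vehicle 1) to 19. The cause of these shifts was not tested. With the sensors, Stat2, Irf9, Irf7 and the polymerase group added, the Ifit/Oas mean in KO Treg was 4.02 log2 CPM. No paired analysis was possible because the replicate numbers follow accession order. Depth limits Zbp1, Irgm1, Oas1a and Mx1, with few counts a library.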
